A study of Homo sapiens with 36 samples.

Results

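The miRNAs miR-10a, miR-10b, miR-196a, miR-196b and miR-615 are encoded inside the HOX gene clusters, and they were followed here in WI-38 normal human lung fibroblasts that entered senescence by different routes. The members were taken by name from the count table. They are hsa-miR-10a-5p, hsa-miR-10a-3p, hsa-miR-10b-5p, hsa-miR-196a-5p, hsa-miR-196b-5p and hsa-miR-615-3p, that is 6 of the 1508 listed miRNAs. All 6 were listed with counts, but miR-10a-5p and miR-10a-3p were the only 2 of the 6 that passed the filter on low counts and entered the tests, among 360 miRNAs in all. The measurement was small RNA sequencing of 36 libraries in 18 conditions, with 2 biological replicates each. Nothing says how far the replicates were separate cultures, so the p-values measure the spread between these libraries. Ctrl denotes proliferating cells without treatment, which the labels call young. PMD-Sen denotes senescence that depends on plasma membrane damage, set off by SDS, a detergent, at 0.0095% in the medium over 24 hours. DDR-Sen denotes senescence that depends on the DNA damage response, set off by doxorubicin (DXR), a DNA-damaging drug, at 250 nM over 24 hours. Both series were sampled daily from D0 to D4 and then on D6, D8 and D16, counted in days from the removal of the agent. RS denotes replicative senescence, reached by repeated division to a population doubling level of 54 to 56. All conditions come from this single fibroblast strain, and the controls have no separate time course.

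HOX genes encode transcription factors that lie in the clusters HOXA to HOXD and are switched on in an order along the cluster that matches position along the body axis. Adult fibroblasts keep a HOX expression pattern that records the body site they came from, and this is called positional identity. The miR-10 and miR-196 genes lie between HOX genes, are conserved with the clusters, and are expressed with their neighbours. miR-196 is known for directing cleavage of HOXB8 mRNA, and miR-10 members for repressing HOX mRNAs.

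The loci were placed on GRCh38, the build of the deposited counts, with the GENCODE annotation. MIR10A lies at chr17:48579838-48579947 on the minus strand, in the HOXB cluster, 1487 bases from HOXB4 and 11309 bases from HOXB5. It falls in an intron of the long annotated form of HOXB3 and in an exon of the unnamed lncRNA ENSG00000257178, and the lncRNA HOXB-AS3 spans it on the other strand. MIR196A1, 1 of the 2 genes of miR-196a, lies in the same cluster at chr17:48632490-48632559 on the minus strand, 52.5 kb from MIR10A, inside the HOXB7 gene span and outside its exons. MIR196A2, the second gene, lies in the HOXC cluster at chr12:53991738-53991847 on the plus strand, between HOXC10 and HOXC9 and in an intron of HOXC6. MIR615 lies in the HOXC cluster at chr12:54033950-54034045 on the plus strand, in introns of HOXC5 and HOXC4. MIR196B lies in the HOXA cluster at chr7:27169480-27169563 on the minus strand, 1041 bases from HOXA10, and overlaps an annotated exon of HOXA9 and, on the other strand, an exon of the lncRNA HOXA10-AS. MIR10B lies in the HOXD cluster at chr2:176150303-176150412 on the plus strand, 1137 bases from HOXD4 and in an intron of HOXD3.

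Mature sequences matched in RefSeq (GRCh38.p14) for 5 of the 6 members. They are shown because the counts below are listed separately for arms of one hairpin and for near-identical paralogs. Capitals mark the seed, bases 2 to 8, which is the main determinant of target pairing. hsa-miR-10b-5p is named only.
hsa-miR-10a-5p: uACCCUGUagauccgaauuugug
hsa-miR-10a-3p: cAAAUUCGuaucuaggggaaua
hsa-miR-196a-5p: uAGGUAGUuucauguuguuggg
hsa-miR-196b-5p: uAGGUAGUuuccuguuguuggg
hsa-miR-615-3p: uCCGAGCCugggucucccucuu
miR-196a-5p and miR-196b-5p share their seed and 21 of 22 bases, and the substitution A12C (positions from the 5′ end, miR-196a-5p base first) is the difference. Both miR-196a genes give the same mature sequence, so the counts of miR-196a-5p cannot be divided between the HOXB and HOXC clusters. The hairpin of MIR10A is 110 bases long and carries both measured arms, shown in capitals, with 18 bases of loop between them.
MIR10A: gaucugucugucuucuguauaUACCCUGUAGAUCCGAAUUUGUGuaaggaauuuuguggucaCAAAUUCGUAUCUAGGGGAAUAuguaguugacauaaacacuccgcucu

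Library totals ran from 81668 to 1933435 miRNA counts, with a median of 376989. The counts were not normalized by the authors, and levels are given here as CPM, counts scaled to a common library total. Member levels in single libraries use totals scaled by TMM factors of 0.858 to 1.12, while pooled values, sums over a series, marker levels and limits in CPM use unscaled totals. As a description of the labelled cell type, 9 miRNAs listed for fibroblasts and mesenchymal cells summed to 209355 to 299118 CPM in each library. The largest medians were those of miR-100-5p (76361 CPM), miR-125b-5p (63858.5 CPM) and miR-21-5p (62085 CPM). Those of miR-145-5p, miR-214-3p, miR-199a-3p (counted with miR-199b-3p) and miR-143-3p were 941, 3196, 4774 and 7867 CPM. The sum alone does not identify fibroblasts. The 6 epithelial markers summed to 16.1 to 173 CPM, and the endothelial miR-126-3p stood at 19.1 to 183 CPM. The liver marker miR-122-5p ran from 6.16 to 279 CPM, and the 3 muscle markers summed to at most 40.1 CPM. The listed blood, neuron and pluripotent markers summed to at most 13.3, 15.8 and 6.19 CPM.

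The 5 members with a matched sequence are 22 or 23 bases long, and counts were compared without a length correction, although adapter ligation takes up some sequences better than others. miR-10a-5p was the sixth most abundant of all listed miRNAs by total (rank 6 of 1508), with 708124 counts over the 36 libraries and 44768 CPM in the pooled libraries. In single libraries its rank ran from 4 to 10. Its share of a library ran from 2.56% (Wilson 95% interval 2.49% to 2.63%) in PMD-Sen D2 replicate 2 to 5.80% (5.74% to 5.86%) in PMD-Sen D8 replicate 1, with a median of 4.41%. These intervals, like all intervals on counts given here, cover counting error only. miR-10a-3p, the other arm of that hairpin, had 7666 counts, 485 CPM pooled (exact Poisson 95% interval 474 to 496) and rank 113.

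The remaining 4 members were near or under the floor of 3 counts per library. miR-10b-5p, the HOXD paralog of miR-10a-5p, had 154 counts in all, 9.74 CPM pooled (8.26 to 11.4), in 32 of 36 libraries with at most 16.5 in any one. miR-615-3p, encoded in the HOXC cluster, had 135 counts, 8.53 CPM (7.16 to 10.1), in 31 libraries with at most 18. miR-196a-5p had 17 counts, 1.07 CPM (0.626 to 1.72), in 13 libraries with at most 2. miR-196b-5p had 2 counts, 0.126 CPM (0.0153 to 0.457), 1 in DDR-Sen D1 and 1 in RS. In the libraries of Ctrl, neither miR-196 member had a count, which at 3 counts per library allows up to 13.4 CPM in replicate 1 and 9.16 CPM in replicate 2 on unscaled totals, so a presence at the pooled level was not detectable at that depth. miR-10b-3p, the other arm of miR-10b, had 1 count in all 36 libraries. The sum of miR-10a-5p over all libraries was thus 4598-fold that of miR-10b-5p.

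**Figure D1:**
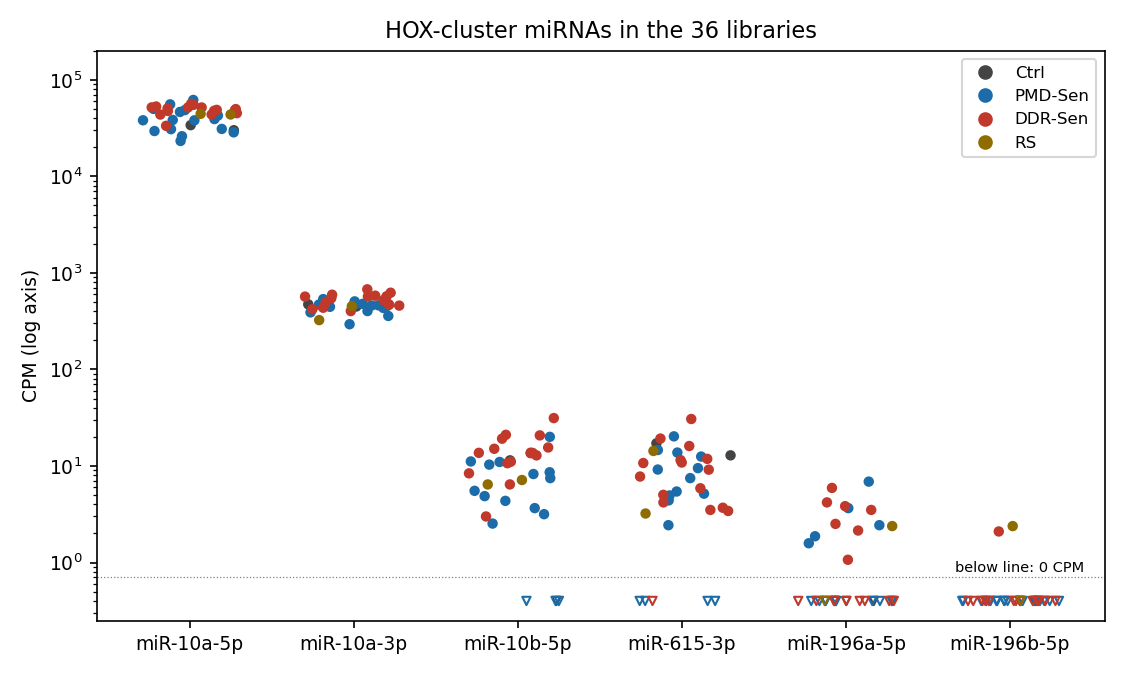
Level of each of the 6 HOX-cluster miRNAs in the 36 libraries, in CPM on a log axis, with 1 point per library coloured by series and open triangles below the dotted line for libraries at 0. miR-10a-5p lies near 44768 CPM and miR-10a-3p near 485 CPM, while the other members lie at 31.4 CPM or lower in every library.

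miR-10a-5p was low in control and early SDS-treated cells, and higher on later SDS days and in DXR-treated cells from D1 on. In Ctrl it stood at 33916 and 30058 CPM in replicates 1 and 2. In PMD-Sen it stood at 29472 and 28578 CPM at D0, at 30807 and 26049 CPM at D1 and at 31010 and 23270 CPM at D2. These first 3 days lay under the range of Ctrl except for 2 libraries, replicate 1 of D1 and replicate 1 of D2, which fell inside it.

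At D3 the PMD-Sen libraries stood at 38044 and 38095 CPM, above both Ctrl libraries. They stood at 39211 and 61849 CPM at D4, at 38389 and 42652 CPM at D6, at 55682 and 48590 CPM at D8 and at 49968 and 46489 CPM at D16. The 2 D4 replicates were the furthest apart of any condition, and replicate 2 of D4 was the highest of all 36 libraries. From D3 on, every PMD-Sen library lay above both Ctrl libraries, but Ctrl has only 2 libraries. How many other tested miRNAs separate from Ctrl in this way was not counted. In the tests below, D3 (log2 fold change 0.25, edgeR adjusted p = 0.691) and D6 (0.34, edgeR adjusted p = 0.257) did not pass.

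In DDR-Sen the level was above that of Ctrl sooner. It stood at 43660 and 33369 CPM at D0, where replicate 2 lay inside the range of Ctrl. It stood at 47794 and 47619 CPM at D1, at 51784 and 45146 CPM at D2, at 48565 and 43769 CPM at D3 and at 55110 and 50533 CPM at D4. From D1 on, every DDR-Sen library lay above both Ctrl libraries, although D1, D2 and D3 did not pass in the main test below. The share of other miRNAs that separate in this way was not counted here either. The later libraries stood at 52921 and 49738 CPM at D6, at 56440 and 51802 CPM at D8 and at 51705 and 48826 CPM at D16. RS stood at 44447 and 43738 CPM, above Ctrl and under all DDR-Sen libraries of D4 to D16.

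miR-10a-3p kept within a narrower band, from 294 CPM in PMD-Sen D0 replicate 1 to 676 CPM in DDR-Sen D8 replicate 2. Ctrl stood at 473 and 449 CPM, in the middle of that band. The lowest condition means were those of PMD-Sen D0 (294 and 390 CPM), PMD-Sen D1 (403 and 358 CPM) and RS (324 and 452 CPM). The highest were those of DDR-Sen D8 (492 and 676 CPM), DDR-Sen D6 (573 and 595 CPM) and DDR-Sen D4 (572 and 581 CPM). PMD-Sen from D2 to D16 stayed between 434 and 535 CPM. The count behind a value was 32 to 984 for this arm, against 2564 to 91820 for miR-10a-5p.

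**Figure D2:**
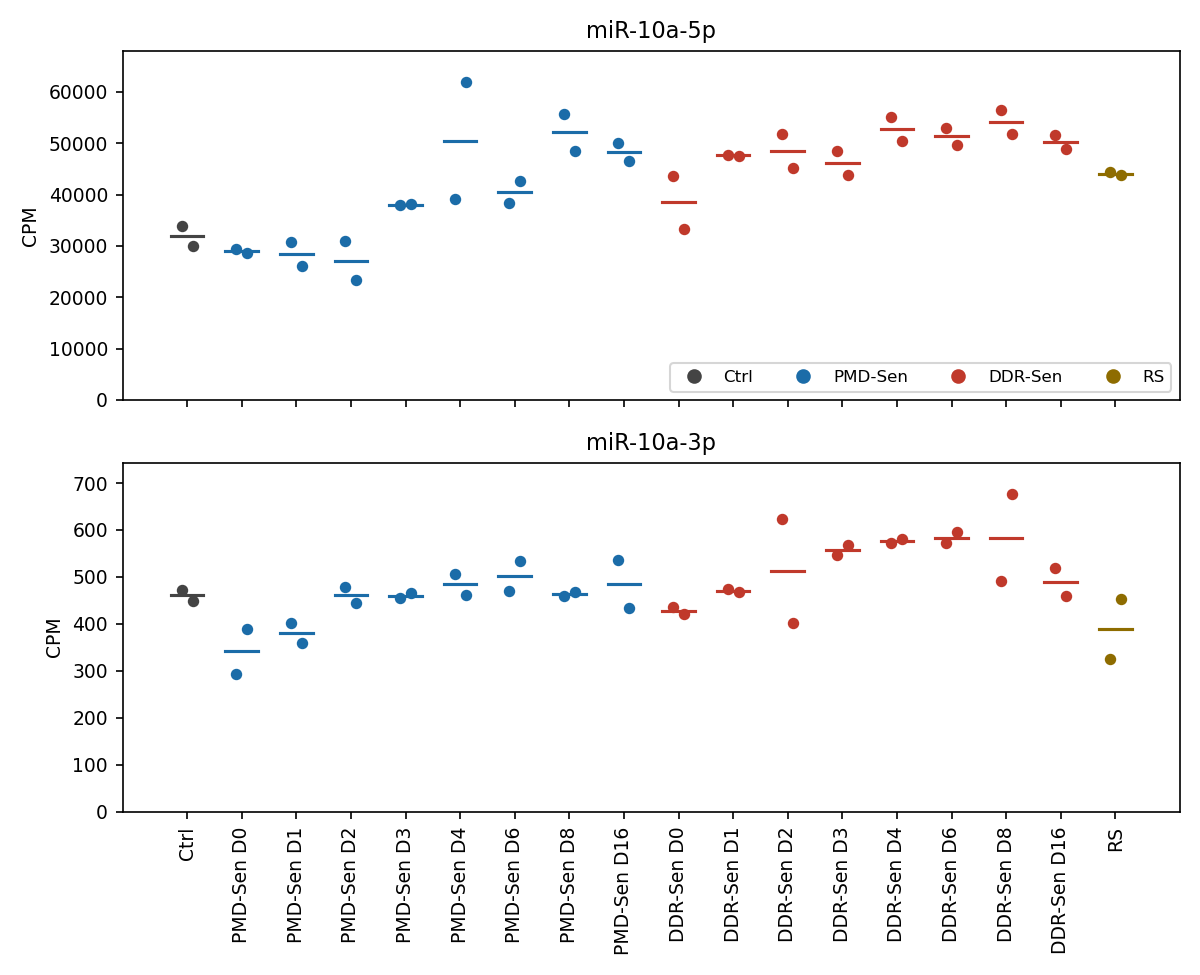
CPM of miR-10a-5p (upper panel) and miR-10a-3p (lower panel) by condition, with 1 point per library and a bar at the mean of the 2 replicates, on linear axes from 0. In the upper panel the PMD-Sen libraries of D0 to D2 lie at 31010 CPM or lower and those of D3 to D16 at 38044 CPM or higher.

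Ordered by mean CPM, miR-10a-5p was highest in DDR-Sen D8 and lowest in PMD-Sen D2. Of the 17 neighbouring pairs in that order, the replicates overlapped in 14. The 3 separate pairs were RS above PMD-Sen D6, PMD-Sen D3 above Ctrl, and Ctrl above PMD-Sen D0. For miR-10a-3p the neighbours overlapped in 15 of 17 pairs, and those apart were DDR-Sen D4 above DDR-Sen D3 and PMD-Sen D3 above DDR-Sen D0.

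Whether a miRNA differed anywhere among the 18 conditions was tested with edgeR's quasi-likelihood F-test, with Benjamini-Hochberg adjustment over the 360 tested miRNAs and a call at an adjusted p under 0.05. Of all tested miRNAs, 39.2% passed. miR-10a-5p was among them (F = 6.66, adjusted p = 7.20e-05), and miR-10a-3p did not pass (F = 1.60, adjusted p = 0.205).

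Each condition was then compared with Ctrl by edgeR's quasi-likelihood test. miR-10a-5p rose in 7 of 17 conditions by this test, all at D4 or later, and its log2 fold change was positive in 14 of 17. The share of all tested miRNAs called in the same comparisons is given beside each value. In PMD-Sen it rose at D4 by a log2 fold change of 0.66 (SE 0.18, edgeR adjusted p = 0.0373, 3.89% of miRNAs called), at D8 by 0.70 (SE 0.18, edgeR adjusted p = 0.0151, 10.0% called) and at D16 by 0.59 (SE 0.18, edgeR adjusted p = 0.0232, 16.7% called). In DDR-Sen it rose at D4 by 0.72 (SE 0.18, edgeR adjusted p = 0.0103, 6.67% called), at D6 by 0.68 (SE 0.18, edgeR adjusted p = 0.0133, 10.6% called), at D8 by 0.76 (SE 0.18, edgeR adjusted p = 0.00416, 11.4% called) and at D16 by 0.65 (SE 0.18, edgeR adjusted p = 0.00728, 23.1% called). On the linear scale the rise was 1.51-fold (95% interval 1.17 to 1.94) at PMD-Sen D16 and 1.57-fold (1.22 to 2.02) at DDR-Sen D16. None of the 7 reached the fold threshold of the study, an absolute log2 fold change over 1, and 6 of the 7 intervals reached beyond it.

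The calls at D4 depend on the processing. That at PMD-Sen D4 was lost with DESeq2 size factors (0.59, edgeR adjusted p = 0.0571), without a filter (0.65, edgeR adjusted p = 0.0904) and with only the libraries compared (0.69, edgeR adjusted p = 0.180). That at DDR-Sen D4 was lost without a filter (0.63, edgeR adjusted p = 0.0618), and under total counts it was 0.45 and passed (edgeR adjusted p = 0.0436). All 7 calls rest on the same 2 Ctrl libraries, of which replicate 2 is the lower. Without Ctrl replicate 2 all 7 calls were lost, at log2 fold changes of 0.51 to 0.67 and edgeR adjusted p of 0.0700 to 0.327. Without Ctrl replicate 1 the calls of PMD-Sen D4 and D16 were lost (0.75 and 0.68, edgeR adjusted p = 0.103 and 0.0680). Without a library of its own, PMD-Sen D4 lost its call without replicate 2 (0.29, edgeR adjusted p = 0.606) and PMD-Sen D8 without replicate 1 (0.60, edgeR adjusted p = 0.122). The call of PMD-Sen D16 was lost without either of its replicates (0.54 and 0.64, edgeR adjusted p = 0.123 and 0.0537). DDR-Sen D4 lost its call without either of its replicates (0.64 and 0.78, edgeR adjusted p = 0.141 and 0.0565), and DDR-Sen D6 without replicate 1 (0.64, edgeR adjusted p = 0.1004). The calls of DDR-Sen D8 and D16 were lost only without Ctrl replicate 2 among these.

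The other 10 comparisons of miR-10a-5p did not pass. RS differed from Ctrl by a log2 fold change of 0.46 (95% interval 0.10 to 0.82, edgeR adjusted p = 0.0568), where 22.5% of miRNAs were called. DDR-Sen D1, D2 and D3 gave 0.58, 0.60 and 0.53 with edgeR adjusted p of 0.161, 0.0975 and 0.106, in comparisons that called 0.278%, 0.278% and 4.44% of miRNAs. DESeq2 called D1 (0.54, adjusted p = 0.0449) and D2 (0.53, adjusted p = 0.0447), and edgeR with only the libraries compared called D1, D2 and D3 (0.62, 0.62 and 0.52, adjusted p = 0.0330, 0.0156 and 0.00271). Under total counts these days gave smaller values that did not pass, 0.39, 0.39 and 0.33 (edgeR adjusted p = 0.165, 0.151 and 0.196). DDR-Sen D0 gave 0.27, in a comparison where edgeR called 0 of 360 miRNAs (0%), DESeq2 called 0, and 34 had an unadjusted p under 0.05. PMD-Sen D3 and D6 gave 0.25 and 0.34, where 0.278% and 6.67% were called. PMD-Sen D0, D1 and D2 gave -0.14, -0.17 and -0.24, where 0.278%, 2.22% and 2.50% were called. The lowest bound among these 3 intervals was -0.60, at D2. Leaving out 1 library moved these uncalled values, to 0.06 without replicate 1 and 0.45 without replicate 2 of DDR-Sen D0, to -0.30 and -0.05 without replicates 1 and 2 of PMD-Sen D1, and to -0.46 and -0.04 without those of PMD-Sen D2. Without Ctrl replicate 1 the values at PMD-Sen D0, D1 and D2 were -0.05, -0.08 and -0.15. Without Ctrl replicate 2 that at PMD-Sen D0 was -0.22 and that at PMD-Sen D3 was 0.17. The value at PMD-Sen D0 was near 0 in thinned libraries (-0.0019) and with only the libraries compared (-0.013), and it was -0.08 with a mean of at least 10 counts and -0.26 without a filter. At PMD-Sen D1 it was -0.11 thinned and -0.26 without a filter.

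miR-10a-3p passed in 0 of the 17 comparisons with Ctrl by edgeR, 0 with an unadjusted p under 0.05, and its lowest edgeR adjusted p was 0.361. DESeq2 also called it in none. Its log2 fold changes ran from -0.44 at PMD-Sen D0 to 0.34 at DDR-Sen D6, and all 17 of the 95% intervals lay between -0.96 and 0.80. A change of 2-fold in either direction was therefore outside every interval of this fit, and smaller changes lay inside them. Thinned to the smallest total, the value was -0.52 at PMD-Sen D3 (-0.00 before), 0.48 at DDR-Sen D3 (0.28 before) and 0.59 at DDR-Sen D4 (0.32 before). Under total counts, DDR-Sen D3, D4, D6 and D8 gave 0.08, 0.06, 0.18 and 0.21. None of these passed. Single libraries moved the values, to -0.03 without replicate 1 and -0.64 without replicate 2 of RS (-0.24 with both). The value was 0.62 without replicate 1 and 0.10 without replicate 2 of DDR-Sen D8 (0.34 with both), and -0.24 and -0.65 without those of PMD-Sen D0.

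**Figure D3:**
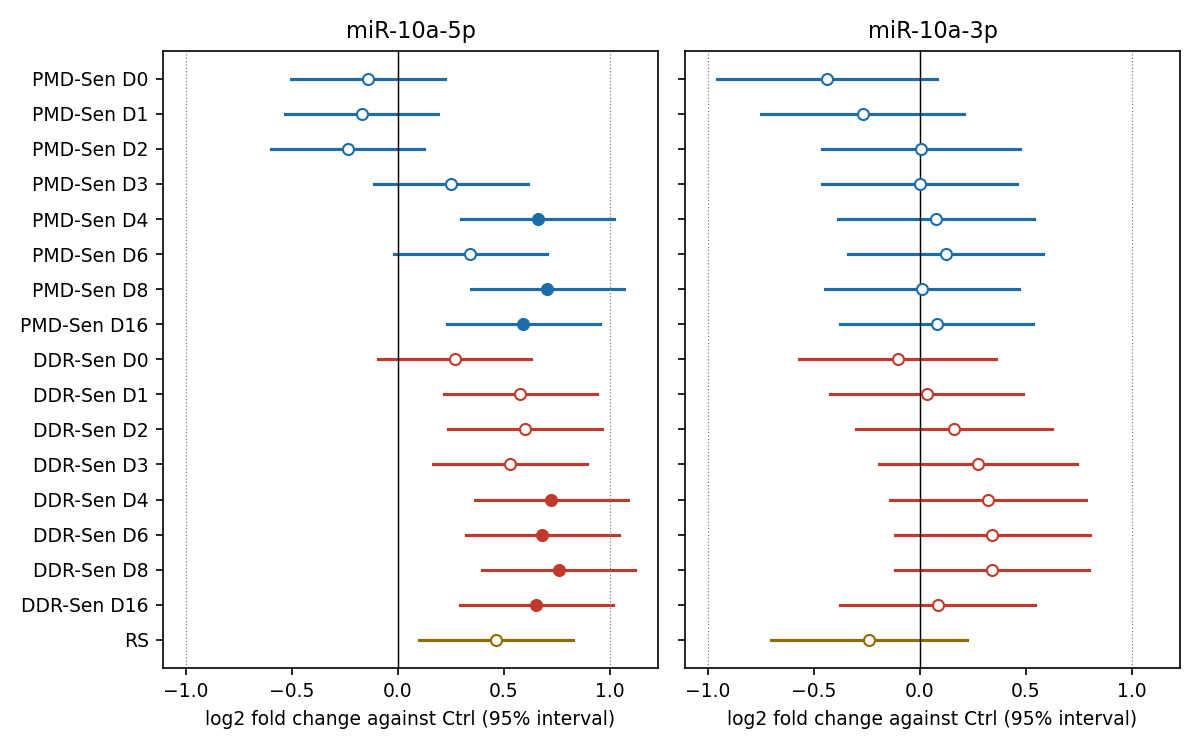
Log2 fold change against Ctrl of miR-10a-5p (left) and miR-10a-3p (right) in the 17 other conditions, with 95% intervals from edgeR as lines, filled points for an adjusted p under 0.05 and dotted lines at -1 and 1. The 7 filled points, all of miR-10a-5p, lie between 0.59 and 0.76.

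The time course within each series compares days of that series and not Ctrl, although the fit used all 36 libraries. Late days (D6, D8 and D16) were compared with early days (D0, D1 and D2), 6 libraries against 6. In PMD-Sen, miR-10a-5p ran from 23270 to 31010 CPM on the early days (median 29025) and from 38389 to 55682 CPM on the late days (median 47539), so the sets did not overlap. The log2 difference was 0.73 (SE 0.10, 95% interval 0.52 to 0.94), a 1.66-fold rise, with an edgeR adjusted p of 2.50e-06. This comparison called 33.6% of all tested miRNAs. Total counts moved with day too, from 81668 to 378489 on early and 325893 to 1933435 on late days. With every library thinned to the smallest total the difference was 0.64 (edgeR adjusted p = 3.54e-05), and without the D0 libraries, an alternative chosen after seeing the data, it was 0.75 (edgeR adjusted p = 1.56e-05). With only the libraries compared, which leaves out Ctrl, it was 0.80 (edgeR adjusted p = 0.000362).

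In DDR-Sen, miR-10a-5p ran from 33369 to 51784 CPM on the early days (median 46382) and from 48826 to 56440 CPM on the late days (median 51754), and these sets overlapped. The log2 difference was 0.22 (95% interval 0.01 to 0.42, edgeR adjusted p = 0.110), in a comparison that called 27.5% of miRNAs. Under scaling by total counts alone it was 0.25 and passed (edgeR adjusted p = 0.0237). It was 0.20 without replicate 1 and 0.07 without replicate 2 of each day, and 0.11 without the D0 libraries. The rise in PMD-Sen exceeded that in DDR-Sen by 0.51 on the log2 scale (SE 0.14, 95% interval 0.22 to 0.81, edgeR adjusted p = 0.0146), a difference of differences that called 15.6% of miRNAs and was added after both values were seen. With only replicate 1 or only replicate 2 of each day, and days pooled within a set, this difference was 0.49 to 0.54 and did not pass.

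miR-10a-3p gave uncalled differences in the same comparisons. It ran from 294 to 478 CPM on early and 434 to 535 CPM on late days of PMD-Sen, a log2 difference of 0.30 (95% interval 0.03 to 0.58, edgeR adjusted p = 0.0839), and of 0.19 in thinned libraries (edgeR adjusted p = 0.407). In DDR-Sen it ran from 403 to 623 and from 458 to 676 CPM, a log2 difference of 0.23 (-0.03 to 0.49, edgeR adjusted p = 0.184), which was 0.36 without replicate 1 of each day and turned to -0.05 without replicate 2. The difference between these was 0.08 (-0.30 to 0.46, edgeR adjusted p = 0.826), and it turned to -0.19 without replicate 1 and was 0.23 without replicate 2.

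Between the inducers, miR-10a-5p was lower in PMD-Sen on average over the 7 matched days D1 to D16, with a gap that varied by day. Condition means in PMD-Sen against DDR-Sen were 28428 against 47707 CPM at D1, 27140 against 48465 at D2 and 38069 against 46167 at D3. They were 50530 against 52821 CPM at D4, 40520.5 against 51329 at D6, 52136 against 54121 at D8 and 48229 against 50266 at D16. The 14 PMD-Sen libraries ran from 23270 to 61849 CPM (median 38800) and the 14 DDR-Sen libraries from 43769 to 56440 CPM (median 50135), so the ranges overlapped. The log2 difference was -0.34 (SE 0.07, 95% interval -0.48 to -0.20, edgeR adjusted p = 0.000369), and 20.0% of all miRNAs were called in this comparison. Under scaling by total counts it was -0.17 (edgeR adjusted p = 0.0135). With 1 replicate of each day, in a model with series and day, it was -0.33 to -0.30 and did not pass. At D16 alone the log2 difference was -0.06 (-0.42 to 0.30, edgeR adjusted p = 0.952), where 0.556% of miRNAs were called. That D16 value was -0.11 to -0.0085 with 1 library left out and -0.13 with DESeq2 size factors. miR-10a-3p differed by -0.22 over D1 to D16 (-0.39 to -0.05, edgeR adjusted p = 0.0625) and by -0.00 at D16 (-0.45 to 0.44, edgeR adjusted p = 0.995). The D1 to D16 value was -0.13 without replicate 2 of each day, -0.05 under total counts (edgeR adjusted p = 0.682), and -0.32 in thinned libraries, where it passed (edgeR adjusted p = 0.0436). Thinned, the D16 value was -0.34 (edgeR adjusted p = 0.807).

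The ratio of the 2 arms compares counts within a library and so needs no scaling between libraries. The 5p arm exceeded the 3p arm in all 36 libraries, by 52.2 to 137 counts per count with a median of 87.8. Ctrl stood at 71.8 and 66.9, PMD-Sen D2 at 64.8 and 52.2, and RS at 137 and 96.7. In PMD-Sen the ratio ran from 52.2 to 100 on the early days (median 73.0) and from 79.9 to 121 on the late days (median 98.6). The mean log2 ratio, with a pseudocount of 0.5 added to each arm, was 0.44 higher late than early (exact two-sided permutation test, n = 6 and 6, p = 0.0173, Benjamini-Hochberg adjusted p = 0.104 over 6 ratio tests). In DDR-Sen it ran from 79.4 to 112 early and from 76.6 to 115 late, with a mean log2 difference of -0.01 (exact permutation p = 0.913). The smallest p that 6 against 6 libraries allow is 0.00216. Of the 6 tests, 3 could not be read because a member had no count in some library. Adjusted over the other 3, an alternative chosen after seeing the data, the p of the PMD-Sen arm ratio was 0.0519 (exact permutation test, Benjamini-Hochberg adjusted).

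**Figure D4:**
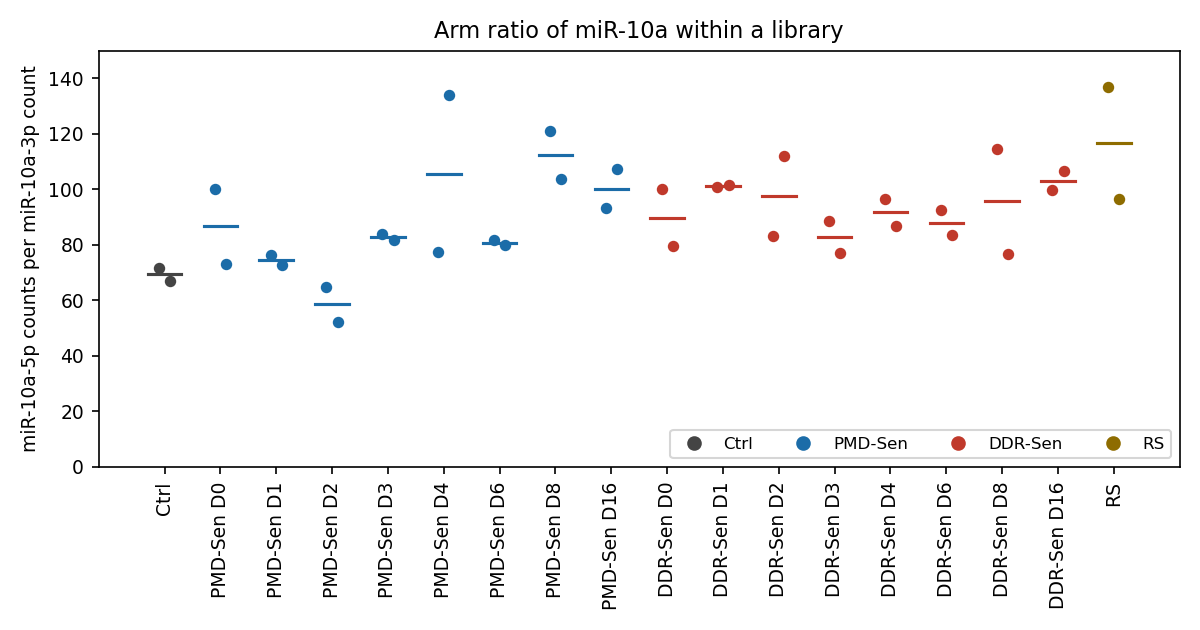
Counts of miR-10a-5p per count of miR-10a-3p in each library by condition, with a bar at the mean of the 2 replicates, on a linear axis from 0. The Ctrl libraries lie at 71.8 and 66.9, and the libraries span 52.2 to 137.

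miR-10b-5p was followed as a sum of counts, since single libraries held too few. Over D1 to D16 it had 46.5 counts in PMD-Sen, 6.69 CPM (exact Poisson 95% interval 4.85 to 8.83), and 90 counts in DDR-Sen, 14.4 CPM (11.5 to 17.6). It had a count in 12 of 14 PMD-Sen libraries and 14 of 14 DDR-Sen libraries. The highest DDR-Sen condition was D8 at 31.4 and 13.6 CPM, followed by D4 at 21.0 and 20.8 CPM, and the highest PMD-Sen condition was D2 at 20.0 and 0 CPM. In a fit that kept every miRNA with a count, the log2 difference of PMD-Sen against DDR-Sen was -1.23 (95% interval -2.12 to -0.34). The edgeR adjusted p was 0.0668 over 1393 miRNAs, which missed the threshold. The ratio to its paralog was 1.49 counts of miR-10b-5p per 10000 of miR-10a-5p in PMD-Sen and 3.06 in DDR-Sen over these days. Ctrl had 1.90 and RS 1.42 per 10000. The log2 ratio of miR-10a-5p to miR-10b-5p differed between early and late days of DDR-Sen by -0.58 (exact permutation p = 0.0563, adjusted p = 0.169). In PMD-Sen it could not be read, since 3 of the 6 early libraries had no count of miR-10b-5p. The counting can split a read between near-identical miRNAs, and 16 of the 36 miR-10b-5p values and 18 of the 36 miR-10a-5p values were not whole. With miR-10a-5p in such excess, the part of misassigned miR-10a-5p reads in the miR-10b-5p counts was not tested.

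miR-615-3p, of the HOXC cluster, gave 16.3 CPM in Ctrl (7.47 to 31.0, 9 counts), 7.15 CPM in PMD-Sen (5.32 to 9.40), 9.48 CPM in DDR-Sen (7.34 to 12.0) and 7.52 CPM in RS (3.25 to 14.8). All 4 intervals overlapped, which does not show that the levels were equal. Against Ctrl, the fit without a filter gave miR-615-3p a log2 difference of -1.46 (-3.61 to 0.69) at PMD-Sen D16. It gave -0.56 (-2.71 to 1.59) at DDR-Sen D16 and -0.85 (-3.02 to 1.32) in RS, and none of these passed. Each of these intervals ran from a fall to a rise, so whether miR-615-3p fell from Ctrl was not resolved. In the fit without a filter its log2 difference of PMD-Sen against DDR-Sen over D1 to D16 was -0.45 (-1.35 to 0.45, edgeR adjusted p = 1.00). miR-196a-5p gave 6 counts in PMD-Sen, 10 in DDR-Sen, 1 in RS and 0 in Ctrl. Its ratio to miR-196b-5p could not be read, since 34 of the 36 libraries had no count of miR-196b-5p.

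How steady the miR-10a arms were was described against all tested miRNAs. The SD of the 18 condition means on the log2 CPM scale was 0.33 for miR-10a-5p and 0.21 for miR-10a-3p, with a median of 0.43 over the 360 miRNAs. Counted from the smallest SD, miR-10a-3p ranked 27 and miR-10a-5p ranked 113. Spread falls with abundance, however, and among the 50 most abundant miRNAs miR-10a-5p ranked 32 from the smallest. Divided by the SD between replicates, the spread of miR-10a-5p was 1.98, rank 20 of 360 from the highest, and that of miR-10a-3p was 1.16, rank 128, with a median of 1.00 over all. The replicate SD is that of single libraries, while each condition mean averages 2 libraries. Without any condition effect the ratio would therefore lie under 1.00.

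**Figure D5:**
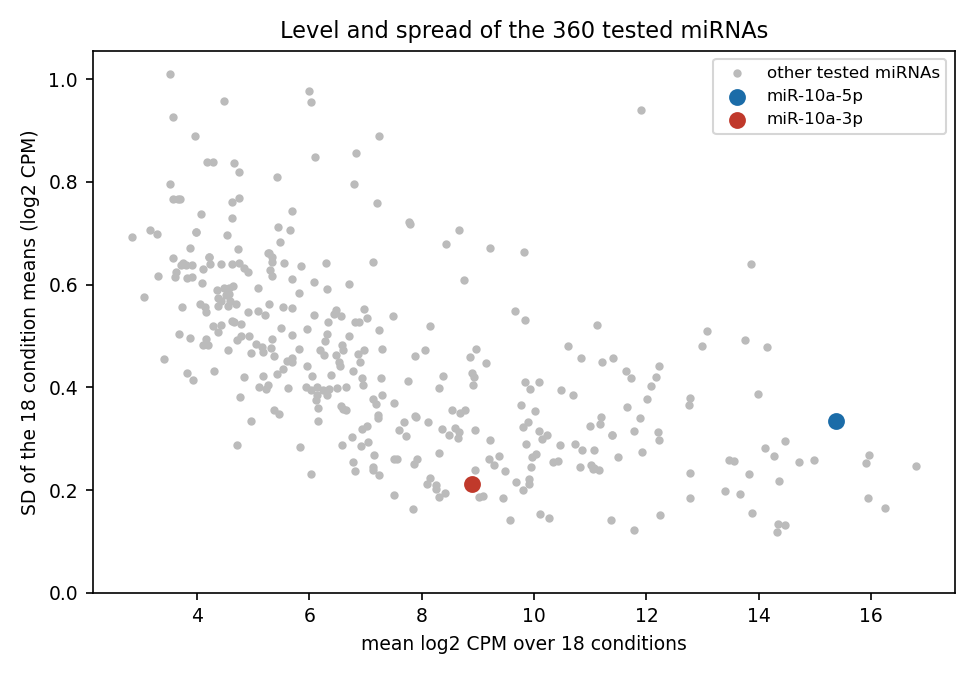
SD of the 18 condition means against mean log2 CPM for the 360 tested miRNAs, with miR-10a-5p and miR-10a-3p as large points. miR-10a-5p lies at an SD of 0.33 among the most abundant miRNAs, and miR-10a-3p at 0.21.

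Of all tested miRNAs, the condition means of miR-10a-5p were most like those of miR-30a-3p (Pearson r = 0.92 over 18 conditions) and miR-30a-5p (r = 0.92). Those of miR-10a-3p were most like let-7b-3p (r = 0.80) and miR-137 (r = 0.77), and the arms of miR-10a had r = 0.68 with each other. These values describe 18 conditions whose miRNAs share libraries, depth and scaling.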

How the data were processed

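Small RNA libraries were made from 100 ng of total RNA with 17 PCR cycles. The authors processed the reads with the exceRpt pipeline against GRCh38 and miRBase and deposited a table of expected counts per mature miRNA, not normalized, in which 1003 values are not whole. No column was left without a sample. Counts were rounded and tested with edgeR 4.0.16 in R 4.3.3 (TMM, filterByExpr, quasi-likelihood test, all 36 libraries, 18 conditions as groups). The filter kept 360 miRNAs, at least 99.8% of each library. The biological coefficient of variation was 20.9%, with 18 residual degrees of freedom. P-values were adjusted by Benjamini-Hochberg over all tested miRNAs. Ratios within a library were compared by exact permutation tests. log2 CPM used a prior count of 2. Member CPM of single libraries used TMM-scaled totals, and pooled CPM, markers and limits unscaled totals. The procedure was also run on simulated data, where the changes put in were larger than those called for miR-10a-5p. That run does not show how well changes of the smaller size are recovered. DESeq2 1.42.0, other scalings and filters, thinning and leaving out libraries were alternatives. The members and lists were chosen with earlier results of these data known. Named miRNAs, apart from cell type markers, are the members and miR-10b-3p, plus the 2 with the most similar condition means for each tested member. The comparison of the late against early changes of both series, the setting without D0, and the adjustment over readable ratios alone, were added after seeing the data. Other arms of these hairpins were not analysed here, apart from miR-10b-3p.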

Additional observations from a re-analysis of the deposited data

Results flagged for a closer look

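The late against early change of miR-10a-5p differed between the inducers. It was larger in PMD-Sen than in DDR-Sen by 0.51 on the log2 scale (edgeR quasi-likelihood test of the difference of differences, adjusted p = 0.0146), with separate changes of 0.73 and 0.22. The early libraries ran from 23270 to 31010 CPM in PMD-Sen and from 33369 to 51784 CPM in DDR-Sen, and the late ones from 38389 to 55682 and from 48826 to 56440 CPM. Total counts moved with day in PMD-Sen, from 81668 to 378489 early and from 325893 to 1933435 late. Thinned to the smallest total, the difference was 0.47 (edgeR adjusted p = 0.0290). This test was added after both changes were seen. With only replicate 1 or only replicate 2 of each day, the difference was 0.49 to 0.54 and did not pass.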

How the results depend on the processing

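The rise of miR-10a-5p from early to late PMD-Sen was called under every scaling, filter and tool tried, at log2 values of 0.64 to 0.87, and without either replicate number (0.72 to 0.84). The fold threshold of the study, an absolute log2 fold change over 1, ended this call (0.73) and those of PMD-Sen D16 (0.59) and of DDR-Sen D16 (0.65) against Ctrl, between the series (-0.34) and for the difference of changes (0.51), whose values it leaves as they are. Scaling by total counts made late against early DDR-Sen a call (0.25). Scaling moved the median of all miRNAs by -0.12 to 0.03 with DESeq2 size factors and by -0.26 to 0.17 with total counts.

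The replicate block, with the replicate number as a term, made RS against Ctrl a call (0.47, edgeR adjusted p = 0.0477). It changed no other call of either arm. The numbers were not taken as pairs, since same-numbered libraries of 153 pairs of conditions had a median r of 0.04 (-0.46 to 0.37) and 53 pairs were over 0.1. In 13 of 18 conditions the mean r was positive.

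Leaving out 1 library, with the 360 miRNAs kept and a lone library assumed to vary like the others, gave 0.51 to 0.68 at PMD-Sen D16, called in none of 4 settings, and 0.57 to 0.74 at DDR-Sen D16, lost without Ctrl replicate 2. With 1 replicate number left out, the series difference was -0.33 to -0.30 and the difference of changes 0.49 to 0.54. In these fits the days of a set were pooled, or day was a term, and the F-test had no residual degrees of freedom and was not run.

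Uncalled values of miR-10a-3p near 0 turned sign, and none became a call except the series difference in thinned libraries (-0.32). At PMD-Sen D2 the value was -0.036 with DESeq2 size factors, -0.034 without a filter, -0.015 with a mean of at least 10 counts and -0.032 with DESeq2. At PMD-Sen D3 it was 0.0083 with total counts, 0.042 without a filter and 0.025 with only the libraries compared. At PMD-Sen D8 it was -0.017 with a mean of at least 10 counts. At PMD-Sen D16 it was -0.0088 with DESeq2 size factors, -0.019 with total counts, -0.15 thinned, -0.0021 with DESeq2 and -0.039 with only the libraries compared. At DDR-Sen it was 0.0013 thinned at D0, and -0.15 and -0.052 with total counts at D1 and D2. Between the D16 libraries it was 0.026 without a filter, and the difference of changes was -0.012 thinned. Leaving out libraries gave -0.047 to 0.055 at PMD-Sen D2, -0.039 to 0.035 at D3, -0.027 to 0.092 at D8 and -0.086 to 0.22 at D16. It gave -0.0060 to 0.079 at DDR-Sen D1, -0.19 to 0.45 at D2, -0.17 to 0.13 between the D16 libraries, -0.048 to 0.36 for late against early DDR-Sen and -0.19 to 0.23 for the difference of changes.

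The log2 ratio of the arms was -0.13 to 0.11 in DDR-Sen with a replicate number left out. No alternative is given for ratios with a member at 0 in some library, since these rest on the pseudocount. Thinned to the smallest total, 16 libraries had a count of miR-10b-5p, 19 of miR-615-3p, 3 of miR-196a-5p and 1 of miR-196b-5p. The cause of these changes was not tested.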
